A study of Rattus norvegicus with 6 samples.

Results

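The genes described here code for 10 proteins of the sarcoplasmic reticulum that store, release or take up calcium in striated muscle: Pln, Sln, Atp2a1, Atp2a2, Casq1, Casq2, Ryr2, Trdn, Hrc and Jph2. They were chosen by name for these roles, with earlier results of these data known. The array carried probes for all 10, out of 18191 genes with a symbol, in the form of 14 of its 30367 probes. Transcripts of heart primordia from Wistar rat embryos (spelled Wister in the labels) were profiled on embryonic day 10, in 3 samples before the start of the heartbeat (pre-heartbeat group) and 3 samples after it (post-heartbeat group), with 1 array for each sample. The pre-heartbeat group had a flat and the post-heartbeat group a raised center of the heart primordium. The labels name no treatment and no engineered allele for either group. The samples of a group are described as biological replicates, without the number of primordia in each or whether they came from separate litters, so that p measures the spread between these samples.

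The sarcoplasmic reticulum is the internal calcium store of muscle cells. Ryanodine receptors release calcium from it at each contraction, the calcium pumps of the SERCA family return it, and calsequestrin holds it inside the store in a bound form. Phospholamban and sarcolipin are small membrane proteins that restrain the pump, and phosphorylation of phospholamban lifts this restraint. In the adult heart, SERCA2, the ryanodine receptor RYR2, calsequestrin 2 and phospholamban are the usual forms, whereas SERCA1 and calsequestrin 1 are best known from skeletal muscle. In the embryonic heart tube, beating begins while the reticulum is still sparse.

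Each value is a log2 signal relative to the 75th percentile of the same array, so that 0 is the brightness of the 75th percentile and a difference of 1 is a doubling of signal. Levels of different probes are not comparable on this scale, but changes of different probes are. A probe entered the test when each of the 3 arrays of 1 group or of both showed it well above background, and a change passed the threshold when its limma p, adjusted over all 19299 tested probes by the Benjamini-Hochberg method, was under 0.05. The arrays lay on 2 slides. On slide 1 were replicate 1 of the pre-heartbeat group together with replicates 1 and 2 of the post-heartbeat group, and slide 2 carried the remaining arrays. Because 3148 probes differed between the slides, the changes are given also from a fit that has the slide as a block, and within each slide. All 16 genes of a list of cardiomyocyte markers were well above background, between 63.5% and 67.2% of all probes were so on each array, and 0 spots were saturated.

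Of the 8 members with a tested probe, 3 rose past the threshold after the start of the heartbeat, and these were Pln, Atp2a1 and Casq1. They rose by between 3.28 and 5.24 fold. Over all genes, represented by their brightest tested probe, 0.165% passed the same threshold as higher. With the slide as a block, 4 members passed, the fourth being Hrc, where 1.52% of all genes did. In the selection of the study's methods, which asks for a change of at least 1.5 fold and an unadjusted p of less than 0.05, 5 members were higher (Jph2 and Hrc in addition), compared with 2.4% of all genes. By none of these 3 rules was a member lower (0 of 8), and 0.033%, 0.569% and 1.18% of all genes were. In 5 of the 8 members the lowest post-heartbeat array was above the highest pre-heartbeat array, compared with 6.45% of all genes. In these counts Atp2a2 stands by its brightest probe, that for variant 3. Its probe for variant 2, not counted, was higher in the methods' selection and with the slide as a block, and its groups did not overlap. The median log2 difference of the 8 members was 1.03, and that of all tested probes was -0.033. In RNA from whole primordia, more cells of a type and more RNA per cell cannot be told apart.

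**Figure D1:**
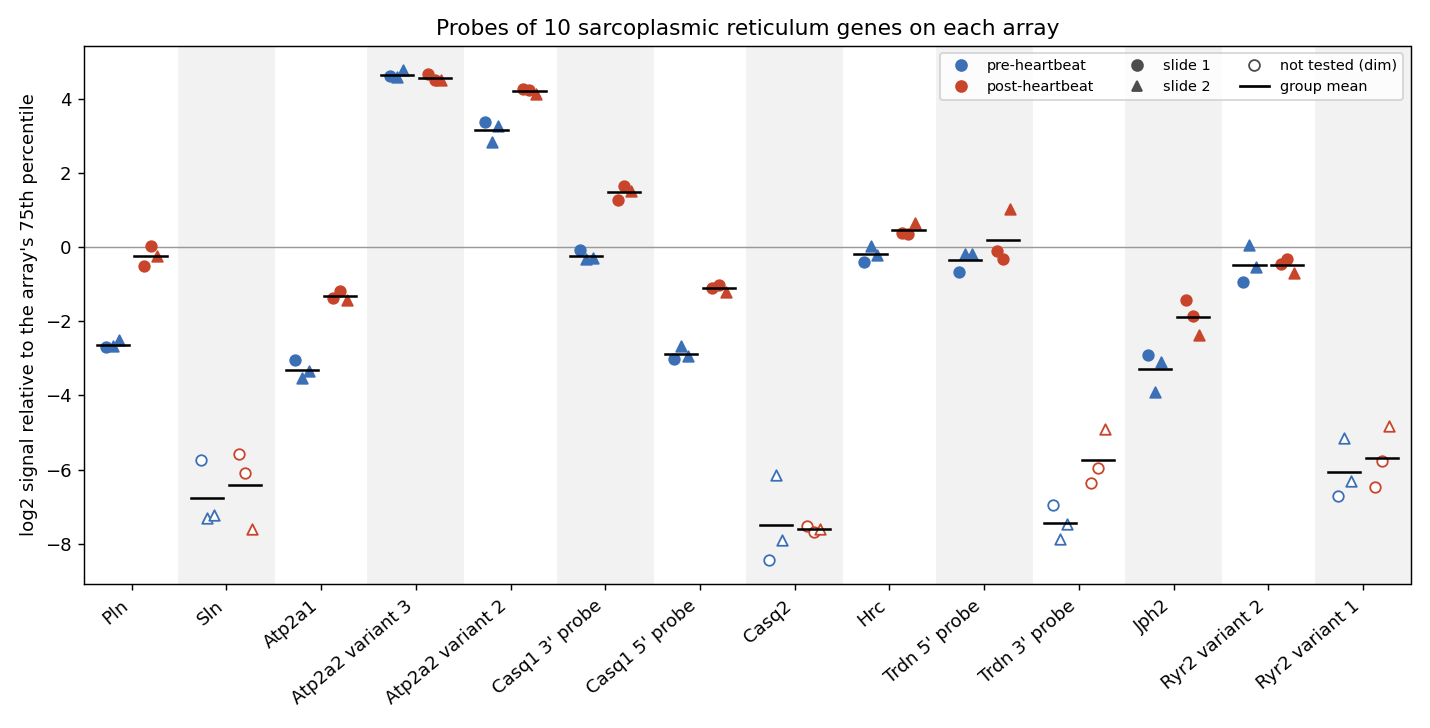
Log2 signal set against each array's 75th percentile (y axis) for each of the 14 probes (x axis) on each of the 6 arrays, with group means as black bars, circles for slide 1 and triangles for slide 2; open symbols are probes that were too dim to test. The arrays of the groups lie apart for Pln, Atp2a1, Casq1, Jph2, Hrc and Atp2a2 variant 2, and overlap for Atp2a2 variant 3, Ryr2, the 5′ probe of Trdn, Sln and Casq2.

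The probes that carry the changes, and the pair of Atp2a2 probes that moved differently, are identified by the first 30 of their 60 bases, 5′ to 3′ as printed on the array.
Pln: tgtagctgcccgtttcctcagtgtggctca
Atp2a1: ttacagggacaaggcaactagctgactgct
Casq1, 5′ probe: actgggagaagacctttgacatcgacttgt
Casq1, 3′ probe: ctcctgttaatgtatttgggtcaaatgcaa
Atp2a2, variant 2: gctgctaacaggtatcgatcgcacagacat
Atp2a2, variant 3: tctgatggttctgtttacatctgtcttcac
The longest run of bases that the Atp2a1 probe shared with a probe of Atp2a2, on either strand, was 8 of 60 for variant 2 and 7 of 60 for variant 3.

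Pln codes for phospholamban, the restraint on the SERCA pump in the heart, and it had the largest change of the 10 tested probes of the members. Its probe lies at chr20:32008389-32008448 on the plus strand of the rn4 genome, the build of all probe positions given here. In the pre-heartbeat group its log2 signal was -2.69, -2.68 and -2.51 on the 3 arrays, and in the post-heartbeat group it was -0.51, 0.04 and -0.25. The post-heartbeat arrays were all far above the pre-heartbeat arrays, which lay within a narrow range. The mean rose from -2.63 ± 0.10 to -0.24 ± 0.27 (SD, n = 3 each), a log2 difference of 2.39 with a standard error of 0.18, or 5.24 fold (limma, adjusted p = 0.0179). In intensity units, the probe was between 179 and 1456 over the 6 arrays. When the slide was a block, the difference was 2.40 (limma, adjusted p = 0.0033), and it was 2.46 within slide 1 and 2.35 within slide 2.

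Sln codes for sarcolipin, the other small regulator of the pump, best known from the atria of the heart. Its probe at chr8:57318467-57318526 on the plus strand was well above background on 1 pre-heartbeat and 2 post-heartbeat arrays and was not tested. Its signals were -5.75, -7.30 and -7.23 before and -5.59, -6.09 and -7.61 after the start of the heartbeat, so that the groups overlapped near the limit of detection, which was between -7.38 and -6.77 on these arrays. The 3 brightest of its 6 values were those of the 3 arrays of slide 1. No change of Sln was detectable with this probe.

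Atp2a1 codes for SERCA1, the pump of fast skeletal muscle. At chr1:185553628-185553687 on the minus strand, its log2 signal was -3.04, -3.54 and -3.33 before and -1.38, -1.18 and -1.41 after the start of the heartbeat. The groups were separated by more than the spread within either of them. Atp2a1 rose by 1.98 on the log2 scale with a standard error of 0.17, or 3.94 fold (limma, adjusted p = 0.0199). A fit with the slide as a block gave 1.89 (limma, adjusted p = 0.00353), and the difference was 1.76 within slide 1 and 2.02 within slide 2.

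Atp2a2 codes for SERCA2, the pump of the heart, and its transcripts end in alternative exons that give a muscle form and a widespread form of the protein. The array has a probe for transcript variant 3 and a probe for transcript variant 2 of the gene, and its annotation does not say which protein form each of them encodes. The probe for variant 3, at chr12:35313088-35313147 on the plus strand, gave 4.60, 4.59 and 4.77 before and 4.66, 4.52 and 4.50 after the start of the heartbeat. These values overlapped and lay close together on all 6 arrays. The log2 difference was -0.09 with a standard error of 0.14 (limma, adjusted p = 0.869). With intensities between 27535 and 41213 and 0 saturated spots, this probe was in the measurable range.

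The probe for Atp2a2 variant 2 lies further toward the 3′ end, at chr12:35316170-35316229. It gave 3.38, 2.83 and 3.26 before and 4.25, 4.25 and 4.14 after the start of the heartbeat. All 3 post-heartbeat arrays were above all 3 pre-heartbeat arrays. The log2 difference was 1.06 with a standard error of 0.18, or 2.08 fold, which missed the threshold (limma, adjusted p = 0.107) and passed it with the slide as a block (0.98, adjusted p = 0.0318 in limma). Within slide 1 it was 0.87, and within slide 2 it was 1.10. With the block, the call was lost without pre-heartbeat replicate 1, post-heartbeat replicate 1 or post-heartbeat replicate 3 (limma, adjusted p = 0.265, 0.0788 and 0.379). The signal of variant 2 relative to that of variant 3 on the same array was between -1.76 and -1.22 before and between -0.41 and -0.27 after the start of the heartbeat. This relative signal was higher by 1.15 with a 95% interval of 0.71 to 1.59, and by 0.88 within slide 1 and 1.27 within slide 2. The groups did not overlap in it, which gives the smallest p that a two-sided exact permutation test of 3 against 3 arrays can reach (p = 0.1, or 0.113 adjusted over the 9 pairs of probes compared). The 9 pairs were chosen after the values had been seen.

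The pump genes and their regulator were compared in the same way. Relative to Atp2a2 variant 2, Pln was higher after the start of the heartbeat by 1.33 on the log2 scale (95% interval 0.69 to 1.97), and relative to variant 3 by 2.48 (1.92 to 3.04). Atp2a1 was higher relative to variant 2 by 0.92 (0.67 to 1.17), and relative to variant 3 by 2.07 (1.56 to 2.59). In each of these 4 pairs the groups did not overlap (exact permutation test, p = 0.1). The change of Pln exceeded that of Atp2a1 by 0.41, with an interval that reached from -0.14 to 0.96. The relative signals of regulator to pump and of SERCA1 to SERCA2 probes were higher on each post-heartbeat array, by an amount that differed between the Atp2a2 probes.

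Casq1 codes for calsequestrin 1, the calcium store protein of fast skeletal muscle, and it was measured by 2 probes at different places of the same transcript. The probe nearer the 3′ end, at chr13:88200507-88200566 on the minus strand, gave -0.09, -0.32 and -0.29 before and 1.27, 1.65 and 1.51 after the start of the heartbeat. The other probe, at chr13:88202604-88202663, gave -3.03, -2.65 and -2.94 before and -1.10, -1.01 and -1.22 after it. With each probe the groups were well apart. The log2 differences were 1.71 with a standard error of 0.16 (3.28 fold, adjusted p = 0.0238 in limma) and 1.76 with a standard error of 0.16 (3.39 fold, adjusted p = 0.0199 in limma). Blocking by slide gave 1.68 and 1.77 (limma, adjusted p = 0.00606 and 0.00566). The changes of the 2 probes differed by -0.05, with a 95% interval of -0.62 to 0.53 (exact permutation test, p = 1).

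Casq2 codes for calsequestrin 2, the form that the adult heart uses. Its single probe, at chr2:197239141-197239200 on the plus strand, was well above background on 1 pre-heartbeat array and on 0 post-heartbeat arrays. Its signals were -8.43, -6.15 and -7.89 before and -7.51, -7.69 and -7.60 after the start of the heartbeat, or between 4.91 and 18.1 intensity units. Pre-heartbeat replicate 2 was the array on which it was detected, and on the other 5 it was below the limit of detection. No change of Casq2 was detectable, and with 1 probe a transcript that this probe does not reach would not have been seen.

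Hrc codes for the histidine-rich calcium binding protein, which binds calcium in the reticulum and also binds SERCA and triadin. At chr1:95807735-95807794 on the plus strand it gave -0.39, 0.03 and -0.22 before and 0.37, 0.35 and 0.65 after the start of the heartbeat. The groups did not overlap, but they were close. The log2 difference was 0.65 with a standard error of 0.17, or 1.57 fold (limma, adjusted p = 0.296). Blocking by slide gave a difference of 0.75, which passed the threshold (limma, adjusted p = 0.0441), and it was 0.75 within each slide. This call was kept in 1 of 6 fits that also left out 1 array, the fit without pre-heartbeat replicate 2. It was lost without any of the other 5 arrays, with adjusted p in limma between 0.0855 and 0.389.

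Trdn codes for triadin, which anchors calsequestrin to the ryanodine receptor and is known to exist in shorter and longer forms that share their beginning. The probe near the 5′ end of the transcript, at chr1:24906655-24906714 on the minus strand, gave -0.66, -0.18 and -0.18 before and -0.10, -0.31 and 1.02 after the start of the heartbeat. The groups overlapped, and post-heartbeat replicate 3 stood above the other 5 arrays. The log2 difference of 0.54 with a standard error of 0.36 did not pass the threshold (limma, adjusted p = 0.866). Without post-heartbeat replicate 3 it was 0.13. The signal of this probe was lower on slide 1 than on slide 2 by a log2 difference of -0.86 (limma, adjusted p = 0.0218). After blocking by slide, the difference between the groups was 0.83 (limma, adjusted p = 0.0932), from 0.45 within slide 1 to 1.20 within slide 2.

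The other Trdn probe, near the 3′ end at chr1:24515267-24515326, was well above background on 0 pre-heartbeat and 2 post-heartbeat arrays and was not tested. Its signals were -6.97, -7.87 and -7.47 before and -6.37, -5.95 and -4.91 after the start of the heartbeat. The groups did not overlap, and the log2 difference was 0.81 within slide 1 and 2.76 within slide 2. The limit of detection is taken as the lowest signal of any probe well above background on an array. With pre-heartbeat values below it raised to it, the post-heartbeat mean was 2.40-fold higher. That mean includes an array on which the probe was not well above background, so the fold is not a firm lower bound.

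Jph2 codes for junctophilin 2, which holds the reticulum close to the cell membrane so that calcium entry can open the release channels. At chr3:154223265-154223324 on the minus strand it gave -2.90, -3.90 and -3.09 before and -1.43, -1.86 and -2.37 after the start of the heartbeat. There was no overlap, but the arrays were spread widely, with a SD of 0.53 before and 0.47 after. The log2 difference was 1.41 with a standard error of 0.33, or 2.65 fold (limma, adjusted p = 0.237). Blocking by slide gave 1.19 (limma, adjusted p = 0.0587), and within the slides it was 1.25 and 1.13.

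Ryr2 codes for the ryanodine receptor of the heart, the channel through which the reticulum releases calcium. Its probe for transcript variant 2, at chr17:69544738-69544797 on the plus strand, gave -0.93, 0.05 and -0.52 before and -0.47, -0.31 and -0.71 after the start of the heartbeat. The pre-heartbeat arrays spanned the whole range of the post-heartbeat arrays. The log2 difference was -0.03 with a standard error of 0.26 (limma, adjusted p = 0.981), and it was 0.54 within slide 1 and -0.47 within slide 2. A probe for variant 1, at chr17:69544683-69544742, was well above background on 1 pre-heartbeat and 2 post-heartbeat arrays and was not tested. Relative to Ryr2, Casq1 was higher by 1.74 (95% interval 0.70 to 2.78) and Jph2 by 1.43 (-0.30 to 3.17). Within slide 1 and slide 2 these were 1.01 and 2.29 for Casq1, and 0.71 and 1.60 for Jph2. Both pairs were among the 9 chosen after the values had been seen (exact permutation test, p = 0.1, or 0.113 adjusted). A limma p that misses the threshold does not show that Ryr2 or Atp2a2 variant 3 was at the same level in the groups.

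**Figure D2:**
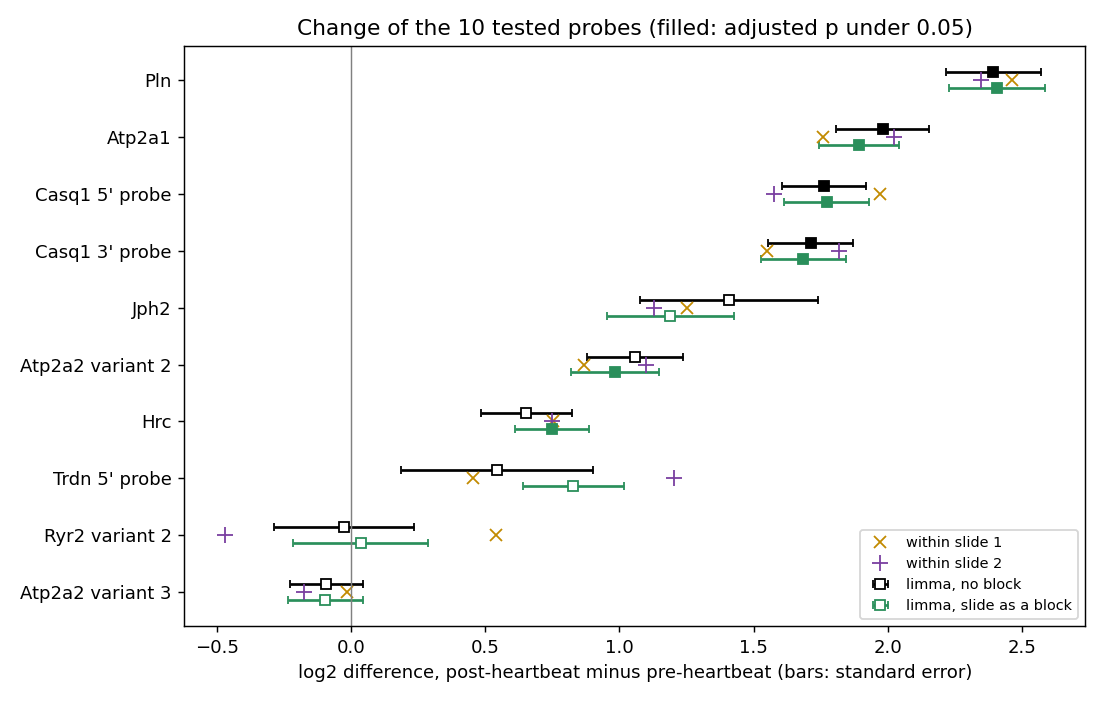
Log2 difference between the groups (x axis, post-heartbeat minus pre-heartbeat, bars for the standard error) for the 10 tested probes (y axis), from limma without a block in black and with the slide as a block in green, filled where the adjusted p was under 0.05; crosses and plus signs are the differences within slide 1 and slide 2. The differences run from 2.39 for Pln to -0.09 for Atp2a2 variant 3, and within the slides only Ryr2 changed its sign.

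The 3 calls rested on all 6 arrays. When any 1 array was left out, whether pre-heartbeat replicate 1, 2 or 3 or post-heartbeat replicate 1, 2 or 3, 0 members passed the threshold without the block. Over these 6 fits Pln was between 2.25 and 2.53 with adjusted p between 0.056 and 0.149 in limma. Atp2a1 was between 1.86 and 2.11 with adjusted p between 0.056 and 0.195 in limma. Casq1 was between 1.63 and 1.82 with adjusted p between 0.0784 and 0.207 in limma. With the slide as a block, all 3 genes passed in 4 of the 6 fits, and none of them passed without pre-heartbeat replicate 1 or without post-heartbeat replicate 3, which leave 1 slide with arrays of 1 group. Without pre-heartbeat replicate 1 the adjusted p in limma was 0.0966 for Pln, 0.0828 for Atp2a1 and 0.109 for Casq1, and without post-heartbeat replicate 3 it was 0.134, 0.134 and 0.16.

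Markers of heart muscle cells also had higher means in the post-heartbeat group. Of the 16 cardiomyocyte markers tested, 16 had a positive log2 difference, with a median of 0.62 and a range of 0.04 to 1.22. Over all tested probes, 44.7% were positive. In 9 of the 16 markers all post-heartbeat arrays were above all pre-heartbeat arrays, compared with 6.45% of all genes, and in the others the groups overlapped. Of the 16 markers 0 passed the limma threshold (0.165% of all genes), 9 had an unadjusted p under 0.05 (7.01% of all tested probes), and 4 passed with the slide as a block (1.52% of all genes). Their summed level, in multiples of the 75th percentile, ranged from 410 to 690 before and from 764 to 904 after the start of the heartbeat. Such a sum mostly reflects the brightest probes of a list. Relative to the mean of these markers on the same array, Pln was higher by 1.78, Atp2a1 by 1.37 and Casq1 by 1.10 on the log2 scale, and in each the groups did not overlap. Atp2a2 variant 2 was higher by 0.45 relative to them, by 0.06 within slide 1 and 0.63 within slide 2. Its groups did not overlap but nearly met, at 0.90 before and 0.94 after the start of the heartbeat. Jph2 (0.80), Hrc (0.04) and Trdn (-0.07) overlapped between the groups on this relative scale. Ryr2 and Atp2a2 variant 3 were lower relative to the markers by -0.64 and -0.70, and their post-heartbeat arrays were below their pre-heartbeat arrays. The part of the number of heart muscle cells in these results was not tested.

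As SERCA1 and calsequestrin 1 are best known from skeletal muscle, markers of that tissue were examined beside them. The regulators Myod1, Myf6 and Pax7 were not well above background on all arrays of either group, and neither were Meox1 and Meox2. Tcf15 and Pax3 were bright, with intensities between 16670 and 26476 and between 10458 and 15889. They differed by 0.19 and 0.12, and the groups did not overlap. Myf5 differed by 0.38, with overlap. Myog was dim and differed by -0.02. Of 14 skeletal markers 9 were tested, with a median difference of 0.19. The summed level of these 9 was between 26.7 and 30.4 before and between 33.7 and 43.3 after the start of the heartbeat. Most of it came from Tcf15, Pax3 and Myh8. Of the 9 tested markers, 0 passed the limma threshold and 4 had an unadjusted p under 0.05 (7.01% of all tested probes). With the slide as a block 2 passed (1.52% of all genes). They were Myh8, a developmental myosin (1.58 without the block), and Ckm, the muscle creatine kinase (0.97). Actn3, an actinin of fast skeletal fibers, was lower by a difference of -0.90 and did not pass. All 6 smooth muscle markers, several of which early heart muscle also expresses, had positive differences, with a median of 0.99 and a summed level between 5.58 and 6.22 before and between 9.25 and 11.3 after. The median was -0.29 for the second heart field, -0.20 for endothelial, 0.80 for erythroid, -0.36 for endoderm and -0.88 for neural ectoderm markers. Of 4 tested neural ectoderm markers, Otx2 was lower by -1.56 (limma, adjusted p = 0.0199), where 0.033% of all genes were lower. With the slide as a block Lmx1a also passed as lower (-4.16, adjusted p = 0.00391 in limma), where 0.569% of all genes did. After the start of the heartbeat, 1 array showed the Lmx1a probe well above background. On post-heartbeat replicate 3 its signal of -7.62 lay under the limit of detection of that array, -7.38. The size of the Lmx1a difference is therefore not firm. With the block, 4 of 6 smooth muscle and 1 of 6 erythroid markers were higher (1.52% of all genes). The part of other cell types in the changes of the members was not tested.

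Of a list of 50 other genes of the reticulum and of calcium release, 44 had a probe and 38 were tested, among them the inositol trisphosphate receptors, calmodulins, calcium/calmodulin-dependent kinases, phosphatase subunits and chaperones of the reticulum. By limma, 0 of the 38 were higher and 0 lower, where 0.165% and 0.033% of all genes were. An unadjusted p under 0.05 was reached by 4 of the 38 and by 7.01% of all tested probes. With the slide as a block 1 of the 38 was higher (1.52% of all genes), and 1 was higher in the selection of the methods (2.4% of all genes), shares near those of all genes. The median log2 difference was 0.08, and 24 of the 38 genes were positive (63.2%), compared with 44.7% of all tested probes. Tmem38a, which codes for the TRIC-A channel that lets potassium balance the release of calcium, was the 1 gene that passed with the slide as a block. It gave -4.88, -3.90 and -4.09 before and -3.63, -3.35 and -3.19 after the start of the heartbeat, without overlap. Its difference was 0.90 (limma, adjusted p = 0.406), and with the block it was 1.10 (limma, adjusted p = 0.0303). With the block, 0 of the 38 passed as higher without pre-heartbeat replicate 1, post-heartbeat replicate 1 or post-heartbeat replicate 3. Speg, a kinase of striated muscle at the reticulum, was the 1 gene in the selection of the methods, with a difference of 0.73 (limma, adjusted p = 0.395). Among relatives of the members, Jph4 differed by 0.16 (limma, adjusted p = 0.877), Atp2a3, Jph1 and Jph3 were too dim to test, and Ryr1 and Ryr3 were not matched to a probe.

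**Figure D3:**
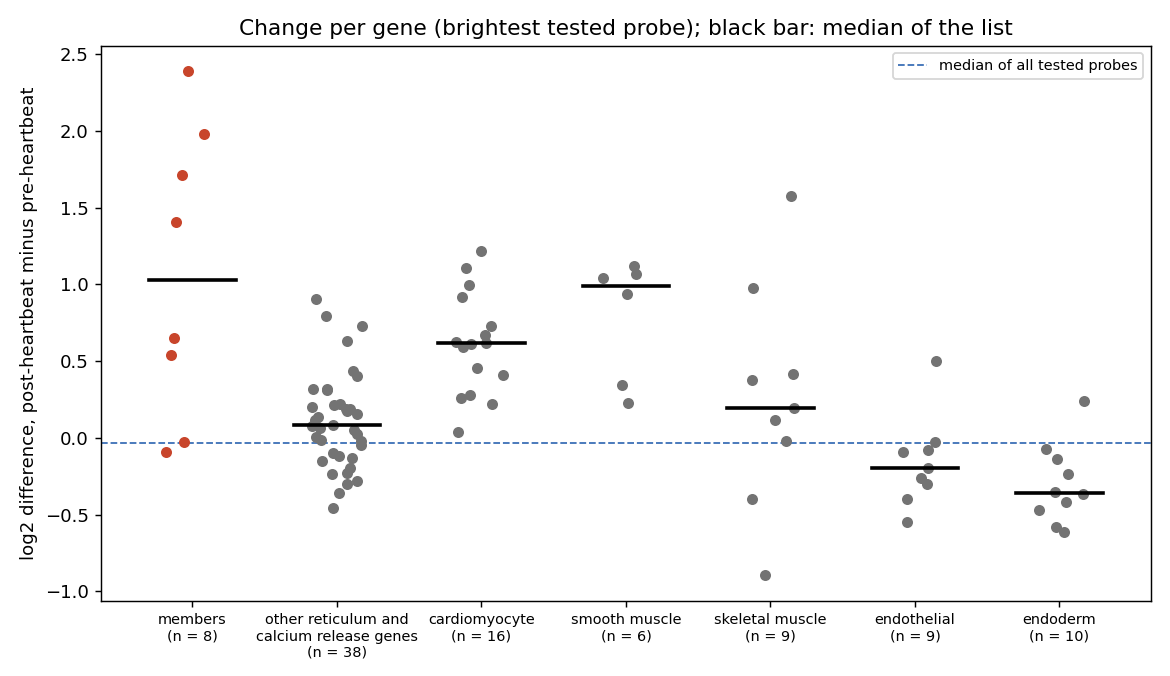
Log2 difference between the groups (y axis) of each gene of a list, by its brightest tested probe, for the members in red and for 6 other lists in gray, with the median of each list as a black bar and the median of all tested probes as a dashed line. The members reach from -0.09 to 2.39 with a median of 1.03, and the 38 other reticulum and calcium release genes center on 0.08.

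Over the 6 arrays, the profile of Pln was set against that of 12128 other genes, each centered on its own mean. The likeness was measured by the root mean square difference, where 0 is the same profile. The 5 genes outside the members with the smallest difference were Trim54 (0.29), a muscle ring finger protein of the sarcomere, Nppa (0.32), the atrial natriuretic peptide of early heart muscle, Hspb1 (0.33), a small heat shock protein, Pla2g2d (0.34), a secreted phospholipase, and Myo16 (0.34), an unconventional myosin. Of these, Trim54 rose by 1.90, Nppa by 1.84 and Hspb1 by 1.77 (limma, adjusted p = 0.0179, 0.0199 and 0.0242). Pla2g2d differed by 2.01 and Myo16 by 2.30 (limma, adjusted p = 0.0513 and 0.0544). Among the members, Atp2a1 was as near to Pln as any of them (0.29), and the Casq1 probes followed (0.36 and 0.37). Hrc (0.90), Trdn (1.05), Ryr2 (1.25) and Atp2a2 variant 3 (1.26) were the farthest. The order is a description, since 6 arrays in 2 groups leave few patterns to tell apart. As the 5 genes were picked for likeness to Pln, which rose, their rises and adjusted p are no separate evidence.

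**Figure D4:**
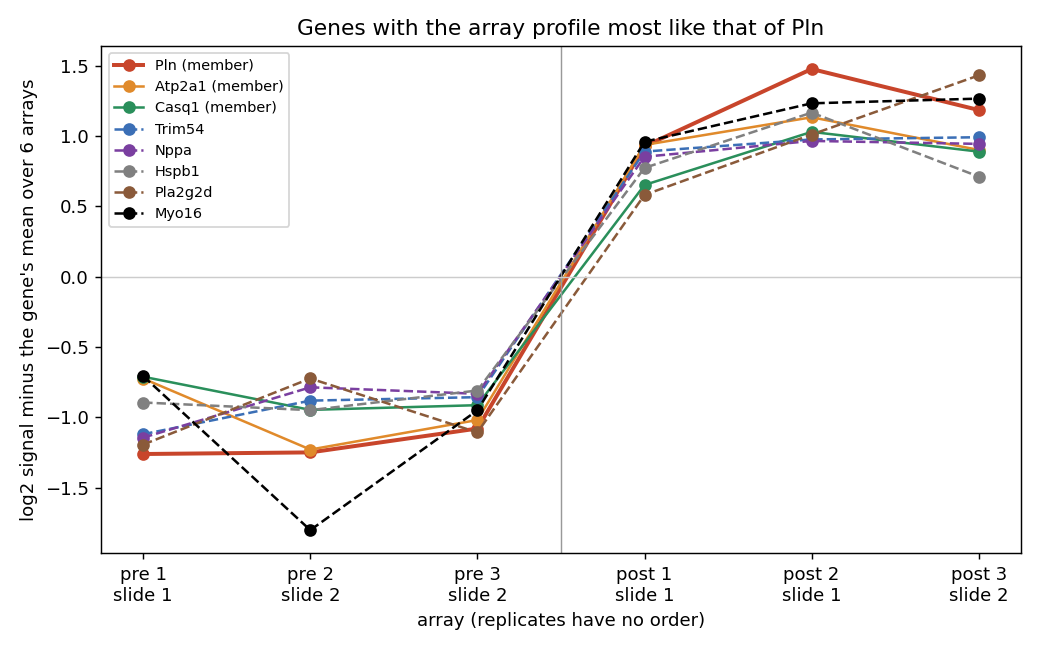
Log2 signal minus the mean of the gene over the 6 arrays (y axis) on each array (x axis), with solid lines for Pln, Atp2a1 and Casq1 and dashed lines for the 5 other genes whose profile was most like that of Pln. In all 8 genes the 3 post-heartbeat arrays lie above 0 and the 3 pre-heartbeat arrays below it, a pattern that the choice by likeness to Pln favors.

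Because Pln, Atp2a1 and Casq1 rose together, the 250 bases before their starts were examined in RefSeq on the GRCr8 build, in which 9 of the 10 members had an entry and Sln had none. They are printed 5′ to 3′ on the strand of the gene, with GATAA, the core of GATA factor sites, in capitals on either strand.
Pln (chr20:33172244-33172493, plus strand): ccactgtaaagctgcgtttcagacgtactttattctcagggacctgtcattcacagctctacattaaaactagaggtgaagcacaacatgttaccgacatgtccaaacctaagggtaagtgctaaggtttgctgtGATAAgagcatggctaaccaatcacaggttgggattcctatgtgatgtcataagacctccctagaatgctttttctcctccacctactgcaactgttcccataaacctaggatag
Atp2a1 (chr1:190475411-190475660, minus strand): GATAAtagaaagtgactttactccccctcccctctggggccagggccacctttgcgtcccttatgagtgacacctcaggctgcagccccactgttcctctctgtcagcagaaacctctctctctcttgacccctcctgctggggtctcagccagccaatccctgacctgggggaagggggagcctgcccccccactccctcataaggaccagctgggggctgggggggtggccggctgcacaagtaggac
Casq1 (chr13:87212711-87212960, minus strand): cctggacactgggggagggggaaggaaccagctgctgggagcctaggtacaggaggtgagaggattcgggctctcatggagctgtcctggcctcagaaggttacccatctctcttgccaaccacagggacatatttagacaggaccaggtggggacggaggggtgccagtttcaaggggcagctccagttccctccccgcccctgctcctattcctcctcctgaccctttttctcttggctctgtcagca

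GATAA was present once before Pln, between 115 and 111 bases upstream of the start, and once before Atp2a1, at the far end of the window. It was absent from the window of Casq1, and it occurred in 4 of the 9 members and in 23.5% of all 33469 promoters of the same length. AAGTG, the core of NKX2-5 sites, was in 3 of the 9 members and 40.6% of all promoters, and CANNTG, the E-box, was in 6 of 9 and 65.5%. The longer MEF2 consensus was found in 1 of the 9, which was Casq2, and in 2.96% of all promoters. The CArG consensus of serum response factor was found in 0 of 9 and in 1.5%. All motifs were searched on both strands. An E-box that reads CAAGTG contains AAGTG, so the shares of these motifs over all promoters can rest on common sites. In Pln and Atp2a1, the members with both, they lay at different positions. With 9 promoters these shares are a description of the sequences, and a match is not evidence of a bound site.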

How the data were processed

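RNA of rat embryonic heart primordia was hybridized to 1-color Agilent arrays by the authors and quantified with Agilent Feature Extraction 10.7.3.1, per the labels. The processed signal that the authors deposited is a background-subtracted intensity per spot. A deposited table of linear ratios, which the authors had made in GeneSpring by a 75th percentile shift and a baseline per probe, served as an alternative. Here, control spots and outlier spots were left out, log2 signals were set relative to the 75th percentile of their array, and spots of a probe were averaged. The groups were compared without covariates in limma 3.58.1 (R 4.3.3), with Benjamini-Hochberg adjustment over 19299 probes. The brightest probe represented a gene. The selection of the methods used their Tukey HSD test, and single pairs used exact permutation tests. The procedure was tested on simulated data. The number of arrays limits the precision. Probe positions refer to rn4, as the array annotation gives them, and promoters are from RefSeq (GRCr8).

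The members, the lists and the tests were chosen with earlier results of these data known. Genes of the pathway list were named when they passed a threshold, with or without the slide as a block, or were in the methods' selection. Paralogs of members and the 5 genes most like Pln were also named. Markers of other cell types were named where they bore on Atp2a1 and Casq1, and those of neural ectoderm where they passed a threshold. Alternatives were the replicate number or slide as a block, normexp with an offset of 50, a percentile taken only from probes detected on every array, the filter on dim probes removed or applied to all 6 arrays, quantile normalization, an intensity trend, the authors' ratios, the methods' test with adjustment, the mean of a gene's probes, a fold threshold of 2, limma's p in the selection and leaving out each array. The slide block together with leaving out each array was an alternative chosen after seeing the values.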

Additional observations from a re-analysis of the deposited data

How the results depend on the processing

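Pln, Atp2a1 and Casq1 had positive differences under all 23 alternatives each, between 2.07 and 2.53, 1.54 and 2.11, and 1.55 and 1.82. Some of these alternatives cannot move the difference and change only its p. They include the replicate block, the filters on dim probes, the intensity trend and the methods' test with adjustment. Each of the 3 genes lost its call under 10 of the 23. The number of members past the threshold was 3, and 4 with the slide as a block. It was 0 with no filter on dim probes and with the methods' test after Benjamini-Hochberg adjustment. It was also 0 in each fit that left out 1 array, and between 0 and 5 when the slide was also a block. The number of members in the methods' selection was 5, and it was 3 with the replicate block and between 4 and 5 when 1 array was left out. The number of other reticulum and calcium release genes past the threshold was 0, with the slide as a block 1, and between 0 and 1 when 1 array was left out. Over all probes 23 were higher and 4 lower. These counts were 95 and 49 with the replicate block, 223 and 89 with the slide as a block, 43 and 7 with normexp, 1 and 0 with no filter, and 0 and 0 with the methods' test after adjustment. The count of higher probes was 11 with quantile normalization, 12 with the 75th percentile over probes above background on all arrays and 10 with the authors' ratios. When 1 array was left out it was between 0 and 297, and that of lower probes was between 0 and 139, with the slide as a block included. The cause was not tested. Ryr2 changed its sign to 0.036 with the slide as a block, to 0.23 without pre-heartbeat replicate 2 and to 0.08 without post-heartbeat replicate 3, with a range of -0.47 to 0.54 over all fits that left out 1 array. Atp2a2 changed its sign to 0.48 with the mean of its probes, which includes variant 2.

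The replicate numbers of the groups are shared in the labels. Samples with the same number had correlations of their deviations from the group means of 0.65, -0.28 and 0.49, and pre-heartbeat replicate 2 correlated best with post-heartbeat replicate 3 (0.50), so that the numbers were not taken to pair the samples. With the replicate block, 3 members passed the threshold, and the adjusted p of Hrc was 0.248 in limma.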
